A study of Mus with 10 samples.

Results

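The genes described here are 8 dual-specificity phosphatases of the mitogen-activated protein kinase (MAPK) pathways, *Dusp1*, *Dusp2*, *Dusp4*, *Dusp5*, *Dusp6*, *Dusp7*, *Dusp10* and *Dusp16*. They were taken by name from the 24564 genes of the deposited count table, and all 8 were found in it. The table holds RNA-seq counts of type 1 innate lymphoid cells (ILC1s), tissue-resident lymphocytes that were sorted from mouse liver. The 5 Ncr1+/+ libraries came from C57BL/6 mice with an intact *Ncr1* gene, which encodes the activating receptor NKp46, and were sorted as Lin-NK1.1+NKp46+CD49b-CD49a+ cells. The 5 Ncr1gfp/gfp libraries came from mice on the same background in which *gfp* stands in the place of *Ncr1*, and were sorted with GFP in place of NKp46 in the gate. The mice were 6 to 8 weeks old, of either sex by the methods, and received no treatment. Whether a library is 1 mouse or a pool, and whether the genotypes were littermates, is not given in the sources used here. The p-values therefore rest on the spread between libraries, which edgeR's quasi-likelihood test draws toward that of other genes.

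MAP kinases (ERK, JNK and p38) are switched on by phosphorylation of a threonine and a tyrosine in their activation loop. Dual-specificity MAPK phosphatases remove both phosphates and so switch the kinases off again. Several of their genes are themselves induced by MAPK signaling, which makes them part of a negative feedback loop. By textbook grouping, DUSP1, DUSP2, DUSP4 and DUSP5 are inducible nuclear enzymes, DUSP6 and DUSP7 are cytoplasmic enzymes that prefer ERK, and DUSP10 and DUSP16 prefer JNK and p38. In lymphocytes they limit signals from activating receptors and cytokine receptors. The comparison between the genotypes asks how the transcripts of these phosphatases differed when NKp46 was absent.

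The libraries held between 15796253 and 22623133 counts. In counts scaled to a common library total with TMM library sizes (CPM), *Ncr1* was between 1913 and 2144 CPM in the Ncr1+/+ libraries and between 141 and 356 CPM in the Ncr1gfp/gfp libraries. Of 10 liver ILC1 markers, 9 were in the table and had counts in every library, and their summed level, *Ncr1* included, was 9644 to 9951 CPM in Ncr1+/+ and 7612 to 7939 CPM in Ncr1gfp/gfp ILC1s. In this sum the replaced gene *Ncr1* itself had means of 2029 and 259 CPM. Past the adjusted threshold of 0.05 (edgeR), 2 of the 9 were lower, *Ncr1* and *Il7r*, and 1 was higher, *Itga1*. Of all tested genes, 0.785% were lower and 0.567% higher by this rule. The summed T cell markers were at 575 to 696 CPM in Ncr1+/+ and 744 to 946 CPM in Ncr1gfp/gfp ILC1s. *Cd3g* made up most of this sum, with means of 501 and 687 CPM. Of the 9 genes in this list, 7 were tested. Past the adjusted threshold (edgeR), 3 were higher and 1 was lower, as were 0.567% and 0.785% of all tested genes. The higher ones were *Cd3e* (3.68-fold), *Cd8a* (2.89-fold) and *Cd3g* (1.37-fold), and the lower one was *Cd28* (0.522-fold). *Cd8b1* and *Cd5* were at 0 counts in at least 1 library. The part of the T cell marker difference in the values of the phosphatase genes was not tested. Hepatocyte markers summed to 1.68 to 33.0 CPM in Ncr1+/+ and 1.87 to 62.2 CPM in Ncr1gfp/gfp ILC1s, with 1 library of each genotype, Ncr1+/+ replicate 1 and Ncr1gfp/gfp replicate 3, far above the others. The sums were at most 52.1 CPM for macrophage and Kupffer cell markers, 10.2 CPM for neutrophil markers and 5.99 CPM for B cell markers. Those of conventional NK cells were at 138 to 160 CPM in Ncr1+/+ and 130 to 178 CPM in Ncr1gfp/gfp ILC1s. Most of this sum came from *Prdm1* (1355 to 2234 counts) and *Itga2* (661 to 1070 counts). *Eomes* had 85 to 278 counts, and *Klra4* had 0 counts in every library. Of the 5 tested genes of this list, 0 passed the adjusted threshold (edgeR's quasi-likelihood test). At an unadjusted p under 0.05 in this test, 1 was higher in Ncr1gfp/gfp ILC1s, *Itga2*. The share of NK cells in the libraries was not tested. The sums of sinusoidal endothelial cell markers were at 113 to 147 CPM in Ncr1+/+ and 127 to 151 CPM in Ncr1gfp/gfp ILC1s. They came nearly all from *Pecam1*, while *Lyve1* was at 0 counts in every library. All 10 libraries had at least 693 counts on each of 4 Y-linked genes and at most 20 counts on *Xist*.

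No member passed the test between the genotypes. Of the 8 members, 7 passed the filter on low counts, all with at least 466 counts in every library, and *Dusp4* did not. With edgeR's quasi-likelihood test, 0 of the 7 had a Benjamini-Hochberg adjusted p-value under 0.05, where 1.35% of all 11463 tested genes did. The study adds a limit of a fold change above 1.5 or below 0.7, which cannot raise a count of 0. With that limit added, 0.733% of all tested genes passed. At an unadjusted p-value under 0.05, 3 of the 7 were lower in Ncr1gfp/gfp ILC1s, *Dusp1*, *Dusp5* and *Dusp7*, and none was higher, where 5.91% of all tested genes were lower and 5.46% higher. With other tools, 2 members passed the adjusted threshold with edgeR's likelihood ratio test, 1 with DESeq2 and 1 with limma-voom. With the fold limit added, these tools called 138, 126 and 77 of the 11463 genes, against 84 in the quasi-likelihood test. Their shares of all genes without the fold limit are not given here. The median log2 fold change of the 7 was -0.09, against 0.00 over all tested genes, and 4 of the 7 were at the lower level, against 49.3% of all tested genes. In none of the 7 did the CPM values separate the genotypes without overlap, where 1.82% of all tested genes lay wholly below and 1.28% wholly above.

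**Figure D1:**
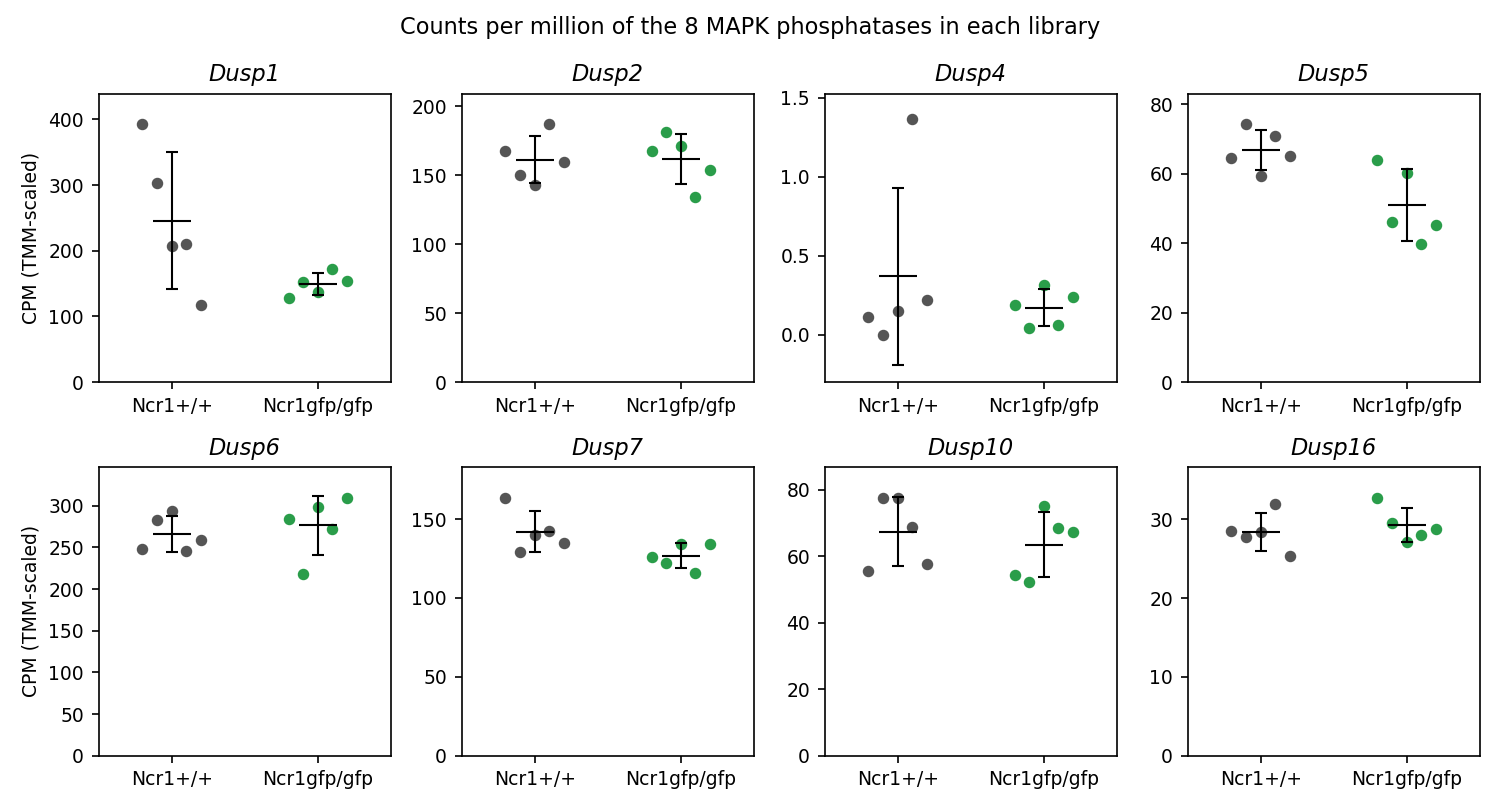
CPM (TMM-scaled) of each of the 8 members on the y axis, in the 5 Ncr1+/+ libraries (grey points, in order of replicate) and the 5 Ncr1gfp/gfp libraries (green points), with the mean and SD in black. *Dusp1* spreads from 118 to 392 CPM among Ncr1+/+ libraries and lies between 128 and 172 CPM in Ncr1gfp/gfp libraries, *Dusp5* and *Dusp7* lie lower in most Ncr1gfp/gfp libraries, and the other members overlap broadly.

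Among the inducible nuclear phosphatases, *Dusp1* encodes an immediate early enzyme that acts mainly on p38 and JNK. The table places it on chromosome 17 (minus strand, 26642536 to 26645417) and does not say which genome build its coordinates use. It was measured at 392, 302, 207, 209.6 and 118 CPM in Ncr1+/+ replicates 1 to 5. In Ncr1gfp/gfp replicates 1 to 5 it was 128, 153, 137, 172 and 154 CPM. Thus 4 of the 5 Ncr1+/+ libraries lay above every Ncr1gfp/gfp library, and Ncr1+/+ replicate 5 lay below all of them. The mean of the 5 libraries was 246 ± 105 CPM (SD) with and 149 ± 16.9 CPM without NKp46. The log2 fold change was -0.72 (standard error 0.19, 95% interval -1.12 to -0.32), a level 0.605-fold that of Ncr1+/+ ILC1s, with an adjusted p of 0.0685 in edgeR's quasi-likelihood test. The highest Ncr1+/+ library was 3.33-fold above the lowest, whereas this ratio was 1.34 among Ncr1gfp/gfp libraries. On the log2 scale the SD was 0.65 in Ncr1+/+ and 0.16 in Ncr1gfp/gfp ILC1s.

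Whether *Dusp1* passed the threshold depended on 1 library and on the test and filter. The adjusted p was 0.0142 with edgeR's likelihood ratio test, 0.0425 with at least 10 counts in every library, 0.000278 without a filter and 0.188 with DESeq2. The standard error of the log2 fold change was 0.28 with DESeq2, against 0.19 in edgeR's quasi-likelihood test. Without Ncr1+/+ replicate 5 the log2 fold change was -0.90 with an adjusted p of 0.00111, and without Ncr1+/+ replicate 1 it was -0.49 with an adjusted p of 0.192 (edgeR's quasi-likelihood test). Ncr1+/+ replicate 1 is also the Ncr1+/+ library with the highest hepatocyte sum, and without it and Ncr1gfp/gfp replicate 3 the log2 fold change was -0.47 (adjusted p = 0.291, edgeR). The sign was negative in all 18 alternative fits.

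*Dusp5* encodes a nuclear phosphatase that is selective for ERK. The table places it on chromosome 19 (plus strand, 53603808 to 53615812). Its level was 64.5, 74.2, 59.5, 70.9 and 65.1 CPM in Ncr1+/+ replicates 1 to 5. In Ncr1gfp/gfp replicates 1 to 5 it was 64.1, 46.2, 60.1, 39.9 and 45.3 CPM. Of the Ncr1gfp/gfp libraries, 3 lay below every Ncr1+/+ library, and replicates 1 and 3 lay within the Ncr1+/+ range. The mean of the 5 libraries was 66.8 ± 5.78 CPM (SD) with and 51.1 ± 10.4 CPM without NKp46. The log2 fold change was -0.39 (standard error 0.11, 95% interval -0.62 to -0.15), or 0.765-fold, with an adjusted p of 0.0985 in edgeR's quasi-likelihood test. Here the larger spread was in the Ncr1gfp/gfp libraries, with an SD of 0.29 on the log2 scale against 0.12 in Ncr1+/+ ILC1s. The adjusted p was 0.0424 with DESeq2, 0.0383 with limma-voom and 0.0451 with edgeR's likelihood ratio test. Without Ncr1gfp/gfp replicate 1 it was 0.0256, and without each of the other libraries in turn it was at least 0.0636 (edgeR's quasi-likelihood test). Over all 18 alternatives the log2 fold change lay between -0.48 and -0.31.

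*Dusp2*, a nuclear phosphatase known from activated lymphocytes, was at 167, 149.99, 143, 187 and 159 CPM in Ncr1+/+ replicates 1 to 5 and at 168, 181, 171, 134 and 153 CPM in Ncr1gfp/gfp replicates 1 to 5. The ranges of the genotypes nearly coincided. The fitted log2 difference was 0.00 with a standard error of 0.08 (adjusted p = 0.995 by the quasi-likelihood test of edgeR), and its sign changed in 8 of 18 alternative fits. The 95% interval, -0.17 to 0.17, does not reach a fold of 1.5 or 0.7.

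*Dusp4*, the remaining nuclear member, was close to the limit of detection. In Ncr1+/+ replicates 1 to 5, 2, 0, 3, 27 and 4 reads were counted, and in Ncr1gfp/gfp replicates 1 to 5, 3, 1, 6, 1 and 4, where 3 counts correspond to 0.132 to 0.190 CPM. Only Ncr1+/+ replicate 4 stood out, with 1.36 CPM. This limit covers counting error alone, since PCR copies of one molecule were counted as separate reads. No fold change is given for this gene, and a difference between the genotypes was not detectable at this depth.

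Of the cytoplasmic ERK phosphatases, *Dusp6* had the highest mean CPM of all members in both genotypes. It was at 248, 283, 293, 246 and 259 CPM in Ncr1+/+ replicates 1 to 5 and at 284, 218, 298, 272 and 309 CPM in Ncr1gfp/gfp replicates 1 to 5. The lowest value and the 2 highest values were all in Ncr1gfp/gfp libraries. The log2 fold change was 0.05 (standard error 0.08, 95% interval -0.11 to 0.22, adjusted p = 0.868, edgeR's quasi-likelihood test). For *Dusp7*, its close relative, the values were 163, 129, 140.2, 143 and 135 CPM in Ncr1+/+ and 126, 122, 134, 116 and 134 CPM in Ncr1gfp/gfp replicates 1 to 5. Of the Ncr1gfp/gfp libraries, 3 lay below every Ncr1+/+ library. The log2 fold change of *Dusp7* was -0.17 (standard error 0.07, 95% interval -0.31 to -0.02, adjusted p = 0.349 in the same edgeR test), a level 0.892-fold that of Ncr1+/+ ILC1s.

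The 2 members that prefer JNK and p38 had small differences. *Dusp10* was at 55.7, 77.6, 77.5, 68.9 and 57.8 CPM in Ncr1+/+ replicates 1 to 5 and at 54.4, 52.2, 75.2, 68.6 and 67.4 CPM in Ncr1gfp/gfp replicates 1 to 5. High and low libraries occurred in both genotypes, and its log2 fold change was -0.09 (standard error 0.11, 95% interval -0.32 to 0.14, adjusted p = 0.848, edgeR's quasi-likelihood test). *Dusp16* was at 28.5, 27.7, 28.3, 31.9 and 25.4 CPM in Ncr1+/+ and at 32.7, 29.5, 27.2, 28.0 and 28.8 CPM in Ncr1gfp/gfp replicates 1 to 5. Its log2 fold change was 0.04 (standard error 0.10, 95% interval -0.17 to 0.25, adjusted p = 0.931 in the same edgeR test). The intervals of *Dusp6*, *Dusp7*, *Dusp10* and *Dusp16* all lie inside the fold limits of 0.7 and 1.5.

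**Figure D2:**
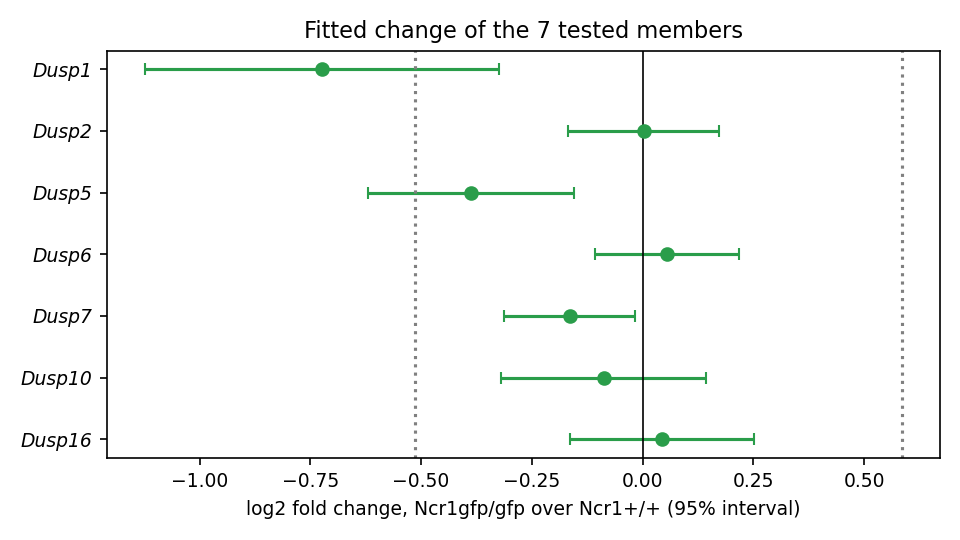
Fitted log2 fold change of Ncr1gfp/gfp over Ncr1+/+ ILC1s (x axis) for the 7 tested members, with 95% intervals from edgeR's quasi-likelihood fit. Dotted lines mark folds of 0.7 and 1.5. The interval of *Dusp1* runs from -1.12 to -0.32 and that of *Dusp5* from -0.62 to -0.15, those of the other 5 lie inside the dotted lines, and these intervals are not corrected for the number of genes.

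Levels of different genes were compared as RPKM, which is CPM divided by the exon length in kilobases. The exon lengths were those of the table, which run from 1155 bases for *Dusp5* to 5112 bases for *Dusp16*, and a different gene model would shift these levels. In Ncr1+/+ ILC1s the median level was 108 RPKM for *Dusp1*, 98.5 for *Dusp2*, 92.6 for *Dusp6*, 56.4 for *Dusp5*, 43.6 for *Dusp7*, 25.4 for *Dusp10*, 5.55 for *Dusp16* and 0.06 for *Dusp4*. The ranges of *Dusp1* and *Dusp2*, and of *Dusp2* and *Dusp6*, overlapped over the 5 libraries, and all later neighbours in this order were separate. In Ncr1gfp/gfp ILC1s the order began with *Dusp2* at 104 RPKM, *Dusp6* at 102 and *Dusp1* at 78.9, followed by *Dusp5* at 40.0 and *Dusp7* at 39.2. In this genotype *Dusp2* and *Dusp6*, *Dusp6* and *Dusp1*, and *Dusp5* and *Dusp7* overlapped in range. The last 3 places were the same as in Ncr1+/+ ILC1s, with 24.8 RPKM for *Dusp10*, 5.63 for *Dusp16* and 0.08 for *Dusp4*. Summed over the 8 members, the level was 376 to 527 RPKM in Ncr1+/+ and 370.2 to 409.8 RPKM in Ncr1gfp/gfp libraries. *Dusp1* made up 16.1% to 38.3% of this sum in Ncr1+/+ libraries, with a median of 24.9%, and 16.8% to 23.9% in Ncr1gfp/gfp libraries, with a median of 19.97%. In bulk samples such as these, fewer cells that express a gene and less RNA per cell cannot be told apart.

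**Figure D3:**
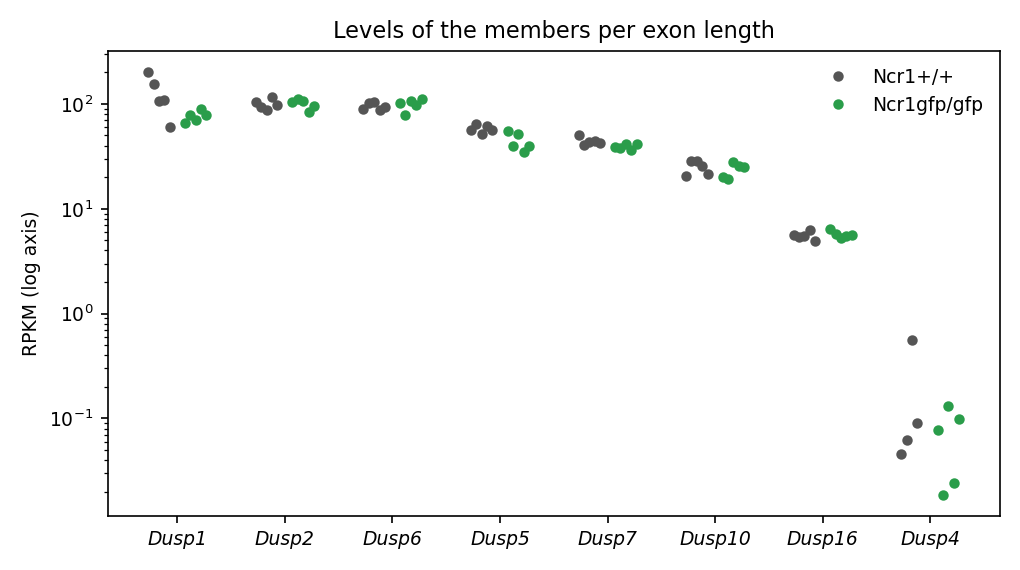
RPKM (log axis) of the members in the order of their median in Ncr1+/+ ILC1s, with 1 point for each Ncr1+/+ (grey) and Ncr1gfp/gfp (green) library, and no point for the Ncr1+/+ library with 0 counts of *Dusp4*. *Dusp1*, *Dusp2* and *Dusp6* share the top of the scale near 100 RPKM, and *Dusp4* lies below 0.6 RPKM in every library.

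Within a genotype, pairs of members had correlations of both signs. With each genotype centred on its own mean, Pearson's r of log2 CPM over the 10 libraries was between -0.55 and 0.69 for the 21 pairs of tested members, with a median of 0.09. The highest value was that of *Dusp6* and *Dusp10* and the lowest that of *Dusp2* and *Dusp6*. These correlations are a description of libraries that also share their scaling and sort, and were not tested. The SD within genotypes on the log2 scale was 0.48 for *Dusp1*, which lay at percentile 83.2 of all tested genes, and between 0.11 and 0.23 for the other tested members.

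The genes whose pattern over the libraries was most like that of *Dusp1* included immediate early genes. Of the 11462 other tested genes, those with the highest r to *Dusp1* in the same centred values were *Fos* (r = 0.94), which encodes a subunit of the transcription factor AP-1, *Btg2* (r = 0.93), an early response gene that restrains proliferation, and *Desi2* (r = 0.93). Because these genes were chosen for their high r, the values carry no test. *Fos* was at 243, 240.5, 117, 122 and 54.1 CPM in Ncr1+/+ replicates 1 to 5 and at 42.6, 66.1, 45.8, 105 and 77.2 CPM in Ncr1gfp/gfp replicates 1 to 5. Ncr1+/+ replicates 1 and 2 were the highest libraries for both genes and Ncr1+/+ replicate 5 the lowest Ncr1+/+ library for both. Without the 2 libraries farthest from the median of the centred *Dusp1* values, r was 0.95 for *Fos*, 0.61 for *Btg2* and 0.71 for *Desi2*.

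*Dusp1* was also set beside a list of 22 genes that are known to rise when tissue is dissociated into single cells, which included immediate early genes (*Fos* and *Btg2* among them) and heat shock genes but not *Dusp1*. Its summed level was 5611, 5243, 4706, 4938 and 3167 CPM in Ncr1+/+ replicates 1 to 5 and 3191, 3822, 3285, 4739 and 3282 CPM in Ncr1gfp/gfp replicates 1 to 5. The genotypes overlapped in this sum, and the lowest library was Ncr1+/+ replicate 5, as for *Dusp1*. On the log2 scale and with genotype means removed, the sum and *Dusp1* had a Pearson's r of 0.86 over the 10 libraries (two-sided exact permutation test within genotypes, p = 0.000347, adjusted p = 0.00694 over the 20 relations examined). Spearman's rho was 0.78 (exact permutation p = 0.0113, adjusted p = 0.225), and without the 2 libraries farthest from the median of the sum r was 0.79. The list holds *Fos*, *Btg2*, *Zfp36* and *Fosb*, at ranks 1, 2, 4 and 5 of r to *Dusp1* among the tested genes. The lists were also chosen with earlier results of these data known. These p-values are therefore not independent support for a relation of *Dusp1* with dissociation. For *Dusp5* the same relation had an r of -0.35 (exact permutation p = 0.303, adjusted p = 0.789) and a rho of -0.36 (exact permutation p = 0.356, adjusted p = 0.837). None of the other 18 relations, which set *Dusp1* and *Dusp5* beside the other marker lists, had an adjusted p under 0.05. Of the 22 genes, all tested, 21 were lower and 1 was higher in Ncr1gfp/gfp ILC1s, with a median log2 fold change of -0.34, where 49.3% of all tested genes were at the lower level. Of the list, *Socs3*, *Zfp36*, *Junb* and *Fos* were lower past the adjusted threshold (edgeR), as were 0.785% of all tested genes. The part of this response in the *Dusp1* difference was not tested.

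**Figure D4:**
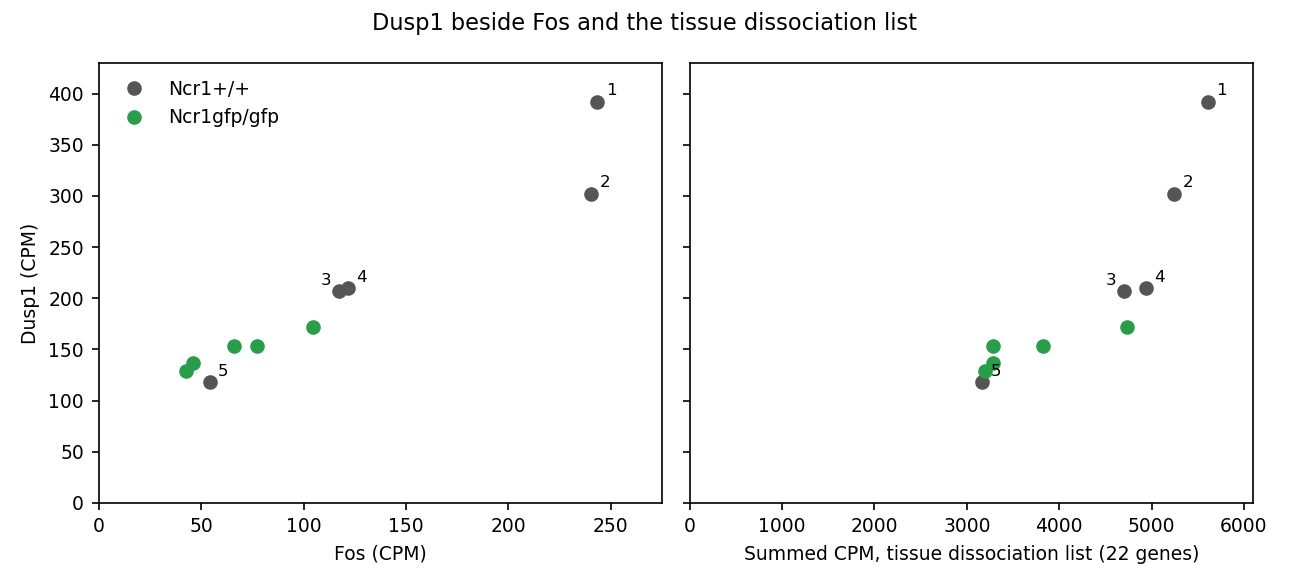
CPM of *Dusp1* (y axis) in each library against the CPM of *Fos* (left) and against the summed CPM of the 22 genes of the tissue dissociation list (right), with Ncr1+/+ libraries in grey, numbered by replicate, and Ncr1gfp/gfp libraries in green. Ncr1+/+ replicates 1 and 2 are highest on both axes, and Ncr1+/+ replicate 5 lies below every Ncr1gfp/gfp library in *Dusp1* and in the summed CPM.

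The 2 MAPK phosphatases of the family that are not among the 8 members, *Dusp8* and *Dusp9*, did not pass the filter on low counts, with at most 12 and 18 counts in any library. The kinases that these phosphatases act on, and the kinases directly above them, were measured in a list of 19 genes. Of these, 14 were tested, 0 passed the adjusted threshold in edgeR's quasi-likelihood test and 0 had an unadjusted p under 0.05, in either direction. Of all tested genes, 1.35% and 11.4% did. The log2 fold changes of the 14 lay between -0.21 and 0.18. *Mapk14*, which encodes p38α, was at 158 ± 7.12 CPM (SD, 5 libraries) in Ncr1+/+ and 159 ± 8.83 CPM in Ncr1gfp/gfp ILC1s, and is given as an example chosen after its values were seen.

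Most of the listed transcripts that ERK signaling induces were at a lower fitted level in Ncr1gfp/gfp ILC1s. The 2 that passed the test are also in the tissue dissociation list. Of 19 listed genes, 17 were tested, with 14 at the lower and 3 at the higher level. Of all tested genes, 49.3% were at the lower level. The median log2 fold change of the 17 was -0.39, against 0.00 over all tested genes. Of the 17, *Fos* and *Junb*, both subunits of AP-1, were lower past the adjusted threshold (0.785% of all tested genes were lower by this rule), and none was higher (0.567%). *Junb* was at 904, 754, 637, 801 and 498 CPM in Ncr1+/+ replicates 1 to 5 and 571, 465, 554, 563 and 454 CPM in Ncr1gfp/gfp replicates 1 to 5. Here too 4 of the 5 Ncr1+/+ libraries lay above every Ncr1gfp/gfp library, and Ncr1+/+ replicate 5 did not. The fitted log2 difference of *Junb* was -0.46 with a standard error of 0.11 and an adjusted p of 0.0334, and that of *Fos* was -1.21 with a standard error of 0.29 and an adjusted p of 0.0377 (edgeR). *Egr1*, an early target of ERK, was at 49.8 ± 3.69 CPM (SD, 5 libraries) in Ncr1+/+ and 49.5 ± 11.04 CPM in Ncr1gfp/gfp ILC1s, and is named here after its values were seen. The count of 2 fell to 0 without Ncr1+/+ replicate 1, 2 or 4 or Ncr1gfp/gfp replicate 2, 3 or 5 and to 1 without Ncr1gfp/gfp replicate 1, and rose to 4 without Ncr1+/+ replicate 5. The share of all genes past this threshold in those fits is not given here. The list shares 9 genes with the tissue dissociation list, whose level differed between libraries as given above. No gene outside these 9 passed the adjusted threshold in edgeR's quasi-likelihood test. The part of the dissociation response in the differences of the ERK-induced genes was not tested.

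Other feedback inhibitors of RAS and ERK signaling formed a list of 14 genes, of which 11 were tested. One of them, *Errfi1*, was higher in Ncr1gfp/gfp ILC1s past the adjusted threshold, as were 0.567% of all tested genes, and none was lower. *Errfi1* encodes an inducible inhibitor of the EGF receptor family. It was at 19.6, 20.9, 20.2, 22.8 and 22.5 CPM in Ncr1+/+ replicates 1 to 5 and at 30.4, 38.9, 32.5, 28.0 and 27.9 CPM in Ncr1gfp/gfp replicates 1 to 5. Every Ncr1gfp/gfp library lay above every Ncr1+/+ library, and the log2 fold change was 0.57, with a standard error of 0.11 and an adjusted p of 0.00822 (edgeR), a fold of 1.49 and so just under the study's limit of 1.5-fold. Without both libraries of the highest hepatocyte sum, the fold of *Errfi1* was 1.45 and the adjusted p was 0.0634 (edgeR). The median log2 fold change of the list was 0.02, with 4 genes lower and 7 higher. At an unadjusted p under 0.05, 3 of the 11 were lower and 3 were higher, where 5.91% and 5.46% of all tested genes were.

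**Figure D5:**
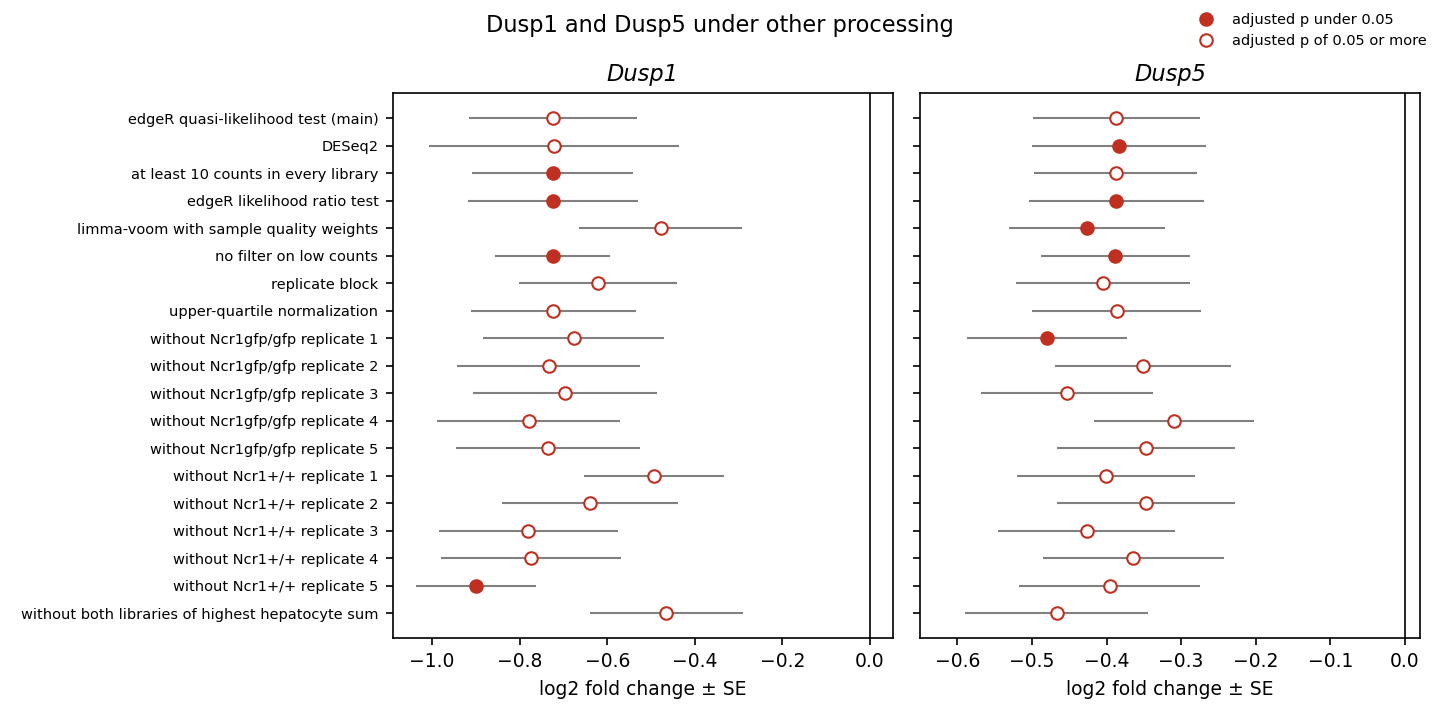
Log2 fold change (x axis) of *Dusp1* (left) and *Dusp5* (right) in the edgeR quasi-likelihood fit at the top and in 18 alternative fits, with bars for the standard error and filled points where the adjusted p was under 0.05. *Dusp1* passed in 4 and *Dusp5* in 5 of the 18, and all values lie below 0.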

How the data were processed

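RNA-seq of 5 Ncr1+/+ and 5 Ncr1gfp/gfp liver ILC1 libraries was analysed. By the methods of the study, 2 ng of total RNA went into a SMART-Seq v4 cDNA kit, which does not mark strand, and single reads of 51 cycles were taken. After trimming, the authors aligned these to mm10 (STAR) and obtained gene counts with HTSeq at default parameters. These defaults count only reads on the strand of the gene, so with this kit part of the reads may have been left out, which would lower the counts and the depth, and this was not tested. They deposited raw counts for 24564 genes, with gene coordinates in an unnamed build and exon lengths in bases as other columns of the table.

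Starting from these deposited counts, filterByExpr kept 11463 genes. TMM normalization was followed by edgeR 4.0.16 (R 4.3.3) and its quasi-likelihood test on genotype alone, with Benjamini-Hochberg adjustment over all tested genes. Log2 fold changes are Ncr1gfp/gfp over Ncr1+/+. Standard errors come from the F statistic and 95% intervals from the moderated degrees of freedom. CPM and RPKM values were computed with TMM library sizes. The steps were run on counts simulated with the same dispersion in both genotypes. The recovery of set changes is not given here, and an unequal spread such as that of *Dusp1* was not simulated. No 2 libraries of a genotype agreed within sampling noise (chi-square per gene from 9.18 to 23.99).

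The members and gene lists were chosen with earlier results of these data known. All 8 members are named, and in each list the genes past the adjusted threshold. For the member with the smallest p, the 3 genes of most similar pattern are also named. The alternatives were DESeq2 1.42.0, voom with quality weights for samples (limma 3.58.1), the likelihood ratio test, upper-quartile normalization, 2 other filters, a replicate block and leaving out each library. Leaving out both libraries of the highest hepatocyte sum was added after the data were examined. The values of 1 kinase gene are not reported here.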

Additional observations from a re-analysis of the deposited data

Results flagged for a closer look

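Library totals, the CPM of the 8 members and the summed CPM of the marker lists were searched for a highest or lowest library whose distance from its neighbour was more than 0.71 of the range of its genotype. This held in 6 of 38 sets of 5 libraries, where chance gives about 1 in 20 for independent, normally distributed values. Several of the sums are skewed or near 0, so no excess over chance can be read from this count. *Dusp4* was at 1.36 CPM in Ncr1+/+ replicate 4, against 0.218 CPM in the next Ncr1+/+ library. The hepatocyte list summed to 62.2 CPM in Ncr1gfp/gfp replicate 3, against 5.59 CPM in the next library of that genotype. In Ncr1+/+ replicate 1 it summed to 33.0 CPM, against 6.31 CPM in the next. The neutrophil list summed to 10.2 CPM in Ncr1gfp/gfp replicate 3, against 1.21 CPM in the next, and to 0.168 CPM in Ncr1+/+ replicate 1, where the other Ncr1+/+ libraries were at 0. The liver ILC1 list was lowest in Ncr1gfp/gfp replicate 4, at 7612 CPM, against 7851 CPM in the next. Of the libraries with high hepatocyte sums, Ncr1+/+ replicate 1 had the highest *Dusp1* of all 10 libraries, at 392 CPM, and without it the log2 fold change of *Dusp1* was -0.49 in place of -0.72. In Ncr1gfp/gfp replicate 3, *Dusp1* was at 137 CPM and *Dusp5* at 60.1 CPM, both within the range of the other Ncr1gfp/gfp libraries.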

How the results depend on the processing

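The number of genes called in the whole table, 84, was 138 with the likelihood ratio test, 126 with DESeq2 and 77 with limma-voom. It was 131 without a filter on low counts and 155 without a limit on fold change. When each library was left out, it lay between 60 and 98. The number of members past the adjusted threshold, 0, was 1 with at least 10 counts in every library (*Dusp1*), 1 with DESeq2 and 1 with limma-voom (*Dusp5* in both), 2 with the likelihood ratio test and 2 without a filter (*Dusp1* and *Dusp5* in both). It lay between 0 and 1 when each library was left out. The adjusted p of *Dusp1* ran from 0.000278 to 0.291 and that of *Dusp5* from 0.0229 to 0.244 over 18 alternatives, and the cause was not tested. The sign of *Dusp2* turned with limma-voom (-0.0225) and without both libraries of the highest hepatocyte sum (-0.00651), and its log2 fold change ran from -0.0415 to 0.0635 over the fits that left out a library. That of *Dusp16* ran from -0.000605 to 0.0897 over the same fits. *Dusp6*, *Dusp7* and *Dusp10* kept their sign and stayed above the adjusted threshold in all 18. With the replicate number as a block, 87 genes and 0 members were called, with a log2 fold change of -0.62 for *Dusp1* (adjusted p = 0.134, edgeR), and libraries of the same number had correlations between -0.02 and 0.04, so that the numbers do not pair them. The count of ERK-induced genes past the adjusted threshold, 2, was 1 with DESeq2, 1 with limma-voom, 4 with the likelihood ratio test, 6 without a filter, 0 without both libraries of the highest hepatocyte sum and 0 to 4 when each library was left out. The count of other feedback inhibitors, 1, was 0 without both of those libraries. The lists of MAP kinases, atypical phosphatases and other phosphatases that act on MAP kinases stayed at 0 under all alternatives, and *Dusp8* and *Dusp9* were tested only without a filter, where neither passed. For *Dusp4* no fold change was recomputed, since its counts were too low.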

Other observations

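The atypical dual-specificity phosphatases and slingshot phosphatases, most of which do not act on MAP kinases, formed a list of 18 genes, of which 12 were tested. None passed the adjusted threshold in edgeR's quasi-likelihood test. An unadjusted p under 0.05 was found for 1 of the 12, and for 11.4% of all tested genes. This was *Ssh2*, which encodes a phosphatase of the actin regulator cofilin. It was at 312 ± 39.5 CPM (SD, 5 libraries) in Ncr1+/+ and 267 ± 21.8 CPM in Ncr1gfp/gfp ILC1s, with a log2 fold change of -0.23 (adjusted p = 0.186, edgeR). The median log2 fold change of the list was -0.10. *Dusp11*, which encodes an RNA phosphatase, had the highest counts among the *Dusp* genes of this list, at 272 ± 12.9 and 280.2 ± 18.3 CPM in the same order. *Dusp13*, *Dusp14*, *Dusp21* and *Dusp26* had 0 counts in every library.

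Other phosphatases that act on MAP kinases made up a list of 9 genes, of which 8 were tested. At an adjusted or an unadjusted p under 0.05, 0 passed (edgeR's quasi-likelihood test), where 1.35% and 11.4% of all tested genes did. The log2 fold changes of the 8 lay between -0.07 and 0.06. *Ptpn7*, a tyrosine phosphatase of lymphocytes that acts on ERK and p38, was at 368 ± 32.8 CPM (SD, 5 libraries) in Ncr1+/+ and 352 ± 28.5 CPM in Ncr1gfp/gfp ILC1s. The genes named in these paragraphs were chosen after their values were seen.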
